A study of Homo sapiens with 6 samples.

Results

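The BCL2 family decides whether a cell permeabilises the outer membrane of its mitochondria and dies, and 10 of its transcripts were followed here: the anti-apoptotic BCL2, BCL2L1 (BCL-XL) and MCL1, the effectors BAX and BAK1, and the BH3-only genes BCL2L11 (BIM), BID, BAD, PMAIP1 (NOXA) and BBC3 (PUMA). They were taken by name from a deposited table of 18268 gene rows, and each of the 10 had 1 row of its own, not joined to another gene. The table came from total RNA of MIA PaCa-2, a long-established cell line of human pancreatic cancer labelled as epithelial. It holds 3 libraries (KO 1 to 3) of cells labelled LINC00901 KO, a knockout of a long non-coding RNA by the label, and 3 (vector control 1 to 3) of vector control cells labelled LCV2. Both groups were grown in DMEM with 10% fetal bovine serum and 2.5% horse serum, with no other treatment named. The labels do not say whether the knockout cells were 1 clone or a pool, or whether libraries came from separate cultures. The p-values therefore rest on the spread of these 6 libraries, part of which may be technical.

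In living cells the anti-apoptotic proteins hold BAX and BAK1 in check. BH3-only proteins, made or activated under stress, bind the anti-apoptotic proteins or the effectors and shift the balance, after which BAX and BAK1 form pores and release cytochrome c to the caspases. MCL1 protein is short-lived and is a frequent survival factor in epithelial tumours, and PMAIP1 binds it with preference over BCL2. Much of this control acts on proteins, by cleavage of BID, phosphorylation of BAD and degradation of MCL1, and was not measured by these libraries.

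BBC3 and BAK1 shared a pattern over the libraries described below, both being high in the same pair of controls. The pattern is not particular to them. HSPA5, a gene outside the family, was at 175.56, 704.91 and 730.68 FPKM in vector control 1 to 3. It was at 183.76, 144.21 and 144.7 FPKM in KO 1 to 3. How many genes share the pattern was not counted, and common regulation of BBC3 and BAK1 was not tested. The sequences before the annotated starts of BBC3 and BAK1 are shown because of the pattern, beside that of BAX, the other effector, which did not show it. Each is the 250 bases before the start, 5′ to 3′ on the gene's strand, from RefSeq on GRCh38.p14; the submitters' processing notes name hg19, so these positions are not those of the deposited values. BBC3 is at chr19:47232668-47232917 (minus strand), BAK1 at chr6:33580277-33580526 (minus strand) and BAX at chr19:48954625-48954874 (plus strand). Capitals mark matches on either strand to CACGTG (the E-box bound by MYC and related factors), TGANTCA (the AP-1 motif) and CCAAT.
BBC3: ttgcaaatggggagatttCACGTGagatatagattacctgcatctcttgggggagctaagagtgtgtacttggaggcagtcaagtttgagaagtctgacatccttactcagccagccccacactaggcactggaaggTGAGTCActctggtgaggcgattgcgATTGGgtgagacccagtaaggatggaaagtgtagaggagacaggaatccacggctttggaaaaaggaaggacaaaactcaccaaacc
BAK1: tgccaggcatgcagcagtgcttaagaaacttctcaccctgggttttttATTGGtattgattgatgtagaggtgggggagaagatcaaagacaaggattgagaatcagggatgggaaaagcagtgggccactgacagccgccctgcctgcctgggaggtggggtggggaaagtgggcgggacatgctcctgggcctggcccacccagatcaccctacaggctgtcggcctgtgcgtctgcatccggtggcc
BAX: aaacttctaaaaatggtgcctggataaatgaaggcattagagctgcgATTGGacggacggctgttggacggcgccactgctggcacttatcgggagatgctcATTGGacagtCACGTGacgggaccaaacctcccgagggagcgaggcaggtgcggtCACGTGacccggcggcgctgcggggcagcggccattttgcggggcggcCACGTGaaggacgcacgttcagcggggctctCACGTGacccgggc

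BBC3 held 1 CACGTG, 232 bases before the start at its first base, 1 TGANTCA and 1 CCAAT on the other strand. BAK1 held 1 CCAAT on the other strand and no other of these motifs. BAX held 4 CACGTG and 2 CCAAT on the other strand. No 2 of these marked matches overlapped. Over all 35116 windows of the same length, CACGTG occurred in 6.34%, TGANTCA in 6.57% and CCAAT in 32%. Of the 10 members 9 had at least 1 window, 15 windows in all, and among these TGANTCA occurred only in that of BBC3. MCL1 was the member without a window, so nothing is said here of its motifs. A match is a description of the letters and not a bound site.

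The values are FPKM, fragments scaled to the length of the transcript and the size of the library, so levels of different genes can be set side by side within a library. The FPKM sum of a library was 123107 at the lowest (KO 1) and 134389 at the highest (vector control 3), and the number of reads behind a value is unknown. LINC00901 itself was not analysed here, since 0 rows named it, and every direction rests on the labels. One control stood apart: across the 9624 tested genes the correlation of vector control 1 was r = 0.932 to KO 3 but only r = 0.904 to vector control 2, while that between vector control 2 and 3 was r = 0.979. Among the KO libraries KO 1 was the least alike, at r = 0.933 and 0.935 to KO 2 and 3 beside r = 0.970 between those. KO 1 was at r = 0.920 and 0.921 to vector control 2 and 3, above the r = 0.894 to 0.897 of KO 2 and 3. These correlations were computed over genes, which do not count as independent replicates. Vector control 1 lay with the KO libraries for BAK1, BBC3 and RIPK1 and with the other controls for MCL1, BIRC3 and JUN; the labels give no reason for this, and whether it is a typical control was not tested. Fold changes that include or drop it are to be read with that limit. Of the epithelial markers, KRT18, KRT19 and the joined row KRT8;KRT78 were expressed, and KRT7, EPCAM and CDH1 were at most 0.14 FPKM. Of the mesenchymal markers, the filament gene VIM stood at 459.52 to 674.8 FPKM. COL1A2 was at 24.72 to 56.18, COL3A1 at 16.46 to 62.02 and COL1A1 at 0.96 to 3.95 FPKM. PDGFRB and LUM were at most 0.17 FPKM, and DCN was listed at 0 in every library. The leukocyte genes PTPRC and CD3E and the endothelial genes VWF and KDR were listed at 0 in every library. Of their lists, CD14 was at most 0.68 and CDH5 at most 0.33 FPKM, both listed at 0 in the KO libraries, and CD68 had only the joined row CD68;EIF4A1;SENP3 (35.13 to 51.58 FPKM). The summed FPKM of the 6 epithelial markers was 115 to 137 in the vector controls and 51.1 to 97.4 in the KO libraries, and its part in the results below was not tested. In bulk RNA, fewer cells that make a transcript and less of it per cell cannot be told apart.

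MCL1 was by far the most abundant member, and the only one whose knockout libraries did not overlap the controls. It stood at 82.27, 76.68 and 72.83 FPKM in vector control 1 to 3 and at 56.15, 54.33 and 54.62 in KO 1 to 3. All 3 KO libraries were low and close together, and all 3 controls were high. The group means were 77.3 ± 4.75 and 55.0 ± 0.978 FPKM (SD, n = 3 each), a ratio of 0.712. In limma over all 9624 tested genes, the log2 fold change of MCL1 on the log2(FPKM + 1) scale was -0.48 (SE 0.13, 95% interval -0.79 to -0.17), and the Benjamini-Hochberg adjusted p of 0.148 did not pass the threshold of 0.05. Groups that do not overlap were common in this comparison: 23.8% of tested genes had them, 8.35% with the KO libraries lower. MCL1 passed without vector control 1 (-0.43, limma adjusted p = 0.0481) and over all settings tried its adjusted p ran from 0.00518 to 0.43. Over all tested genes the median log2 fold change was 0.08; median scaling brought this to 0, with MCL1 at -0.56, and after quantile normalization MCL1 was at -0.35 (adjusted p = 0.283).

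BCL2L1, which also guards the outer membrane, did not divide by group. Its levels were 8.77, 11.69 and 11.57 FPKM in vector control 1 to 3 and 8.42, 11.33 and 10.31 in KO 1 to 3, so that the lowest library of each group was its first. The log2 fold change was -0.08 with a 95% interval from -0.51 to 0.34 (limma adjusted p = 0.85). BCL2, the founder of the family, was scarcely transcribed, at 0.47, 0.17 and 0.23 FPKM in vector control 1 to 3 and 0.19, 0.19 and 0.31 in KO 1 to 3. It lay below the filter of at least 1 FPKM in at least 3 of 6 libraries and was the 1 member not tested. In a fit without that filter, in which 1.67% of genes were called, its log2 fold change was -0.06 (limma adjusted p = 0.765). Of these 3 transcripts MCL1 was the highest in every library: the MCL1 to BCL2L1 ratio was 9.38, 6.56 and 6.29 in vector control 1 to 3 and 6.67, 4.80 and 5.30 in KO 1 to 3.

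**Figure D1:**
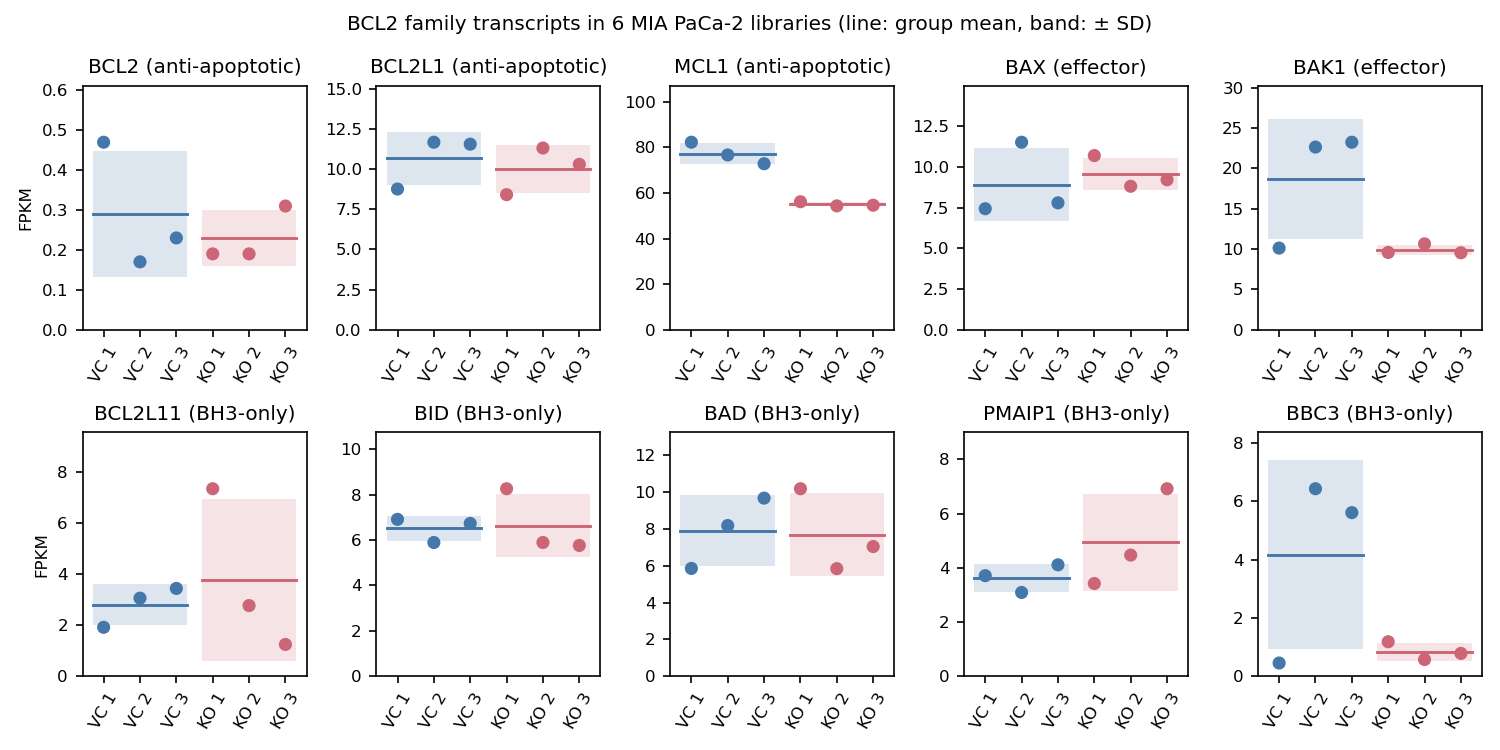
FPKM (y axis, from 0, a scale of its own in each panel) of the 10 BCL2 family members in the 3 vector control (VC, blue) and 3 knockout (KO, red) libraries; lines are group means and bands ± SD. The KO libraries lie below every control for MCL1 (54.33 to 56.15 against 72.83 to 82.27), while for BAK1 and BBC3 vector control 1 lies with the KO libraries.

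Of the effectors that form the pore, BAK1 was lower in all 3 KO libraries than in vector control 2 and 3, but not than in vector control 1. It stood at 10.12, 22.66 and 23.26 FPKM in vector control 1 to 3 and at 9.58, 10.65 and 9.54 in KO 1 to 3. Vector control 1 lay inside the KO range, and the mean of the other pair of controls was 2.27 times its level. With all libraries the log2 fold change was -0.77 (SE 0.31, 95% interval -1.48 to -0.05, limma adjusted p = 0.26). Without vector control 1 it was -1.13 (limma adjusted p = 0.00809), and without vector control 2 or 3 it was -0.59 or -0.57 (adjusted p = 0.587 and 0.604).

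BAX, the other effector, did not follow BAK1. It was at 7.44, 11.53 and 7.80 FPKM in vector control 1 to 3 and 10.71, 8.82 and 9.22 in KO 1 to 3, and the KO range lay within that of the controls. Its log2 fold change was 0.11, with a 95% interval from -0.35 to 0.57 (limma adjusted p = 0.805), and ran from 0.01 without vector control 1 to 0.29 without vector control 2. BAK1 made up 57.6%, 66.3% and 74.9% of the summed effector FPKM in vector control 1 to 3 and 47.2%, 54.7% and 50.9% in KO 1 to 3. The 2 effector transcripts were thus near parity in the KO libraries, where BAK1 still led in KO 2 and KO 3. BAK1 led in every control, but vector control 1 (57.6%) lay nearer to KO 2 (54.7%) than to vector control 2 (66.3%). The BAX to BCL2L1 ratio, an effector over its inhibitor, was 0.848, 0.986 and 0.674 in vector control 1 to 3 and 1.27, 0.778 and 0.894 in KO 1 to 3, with overlapping groups.

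BBC3, a BH3-only gene whose protein can bind all the anti-apoptotic members, had the widest range of the family, 14.3-fold between its highest and lowest library. It stood at 0.45, 6.43 and 5.61 FPKM in vector control 1 to 3 and at 1.18, 0.57 and 0.78 in KO 1 to 3. As for BAK1, vector control 2 and 3 were high and the other 4 libraries low, and vector control 1 was the lowest of all. The mean of vector control 2 and 3 was 13.4 times the level in vector control 1. The log2 fold change was -1.18 (SE 0.59, 95% interval -2.56 to 0.20, limma adjusted p = 0.347) with all libraries, -1.94 without vector control 1 (adjusted p = 0.00677), -0.76 without vector control 2 and -0.85 without vector control 3 (adjusted p = 0.685 for both).

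PMAIP1, the BH3-only partner of MCL1, was at 3.71, 3.09 and 4.11 FPKM in vector control 1 to 3 and 3.42, 4.47 and 6.92 in KO 1 to 3. KO 2 and 3 lay above every control and KO 1 did not. The log2 fold change was 0.32 (95% interval -0.24 to 0.88, limma adjusted p = 0.528), and it was 0.09 without KO 3 and 0.51 without KO 1. BCL2L11, whose protein shares that breadth of binding, was at 1.91, 3.05 and 3.43 FPKM in vector control 1 to 3 and at 7.33, 2.76 and 1.24 in KO 1 to 3. KO 1 held the highest level and KO 3 the lowest, so the knockout libraries enclosed all the controls. Its log2 fold change was 0.14 (95% interval -0.92 to 1.21, limma adjusted p = 0.899) and turned to -0.36 without KO 1 and to -0.04 without vector control 1.

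BID, which links death receptors to the mitochondrion once caspase-8 has cut it, was at 6.91, 5.89 and 6.73 FPKM in vector control 1 to 3 and 8.26, 5.89 and 5.76 in KO 1 to 3 (log2 fold change 0.01, 95% interval -0.41 to 0.43, limma adjusted p = 0.983). BAD, which survival kinases hold inactive by phosphorylation, was at 5.85, 8.18 and 9.67 FPKM in vector control 1 to 3 and 10.18, 5.84 and 7.04 in KO 1 to 3 (log2 fold change -0.04, 95% interval -0.62 to 0.54, limma adjusted p = 0.952). In both genes KO 1 was the highest of all 6 libraries, and the groups overlapped. The sign of their fold changes is not settled: BID was at -0.14 without KO 1 and -0.05 without vector control 2, and BAD at 0.11 without KO 2 and 0.10 without vector control 3.

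**Figure D2:**
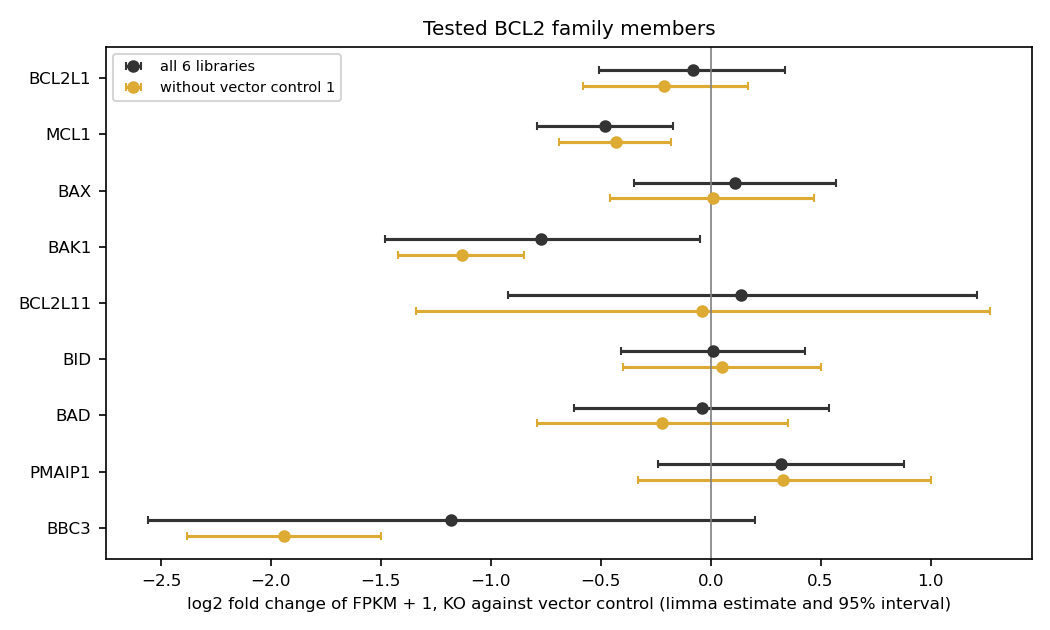
Log2 fold change of the 9 tested members (x axis, log2 of FPKM + 1, KO against vector control) with the 95% limma interval, with all 6 libraries (black) and without vector control 1 (yellow). Leaving out that control moves BAK1 from -0.77 to -1.13 and BBC3 from -1.18 to -1.94 and leaves MCL1 near its place (-0.48 and -0.43).

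Over the family, limma called 0 of the 9 tested members, where 130 of all 9624 tested genes (1.35%) were called. At an unadjusted p of 0.05, 2 members (MCL1 and BAK1) passed, against 17.5% of all tested genes. Without vector control 1, 3 members were called (MCL1, BAK1 and BBC3), all lower in the KO libraries, in a comparison that called 13.8% of all tested genes. Of all tested genes 5.07% were called lower there. The same 3 were called by robust limma with array weights, which called 41.8% of all genes. Its estimates for MCL1 (-0.45), BAK1 (-1.09) and BBC3 (-1.97) lay near those without vector control 1 (-0.43, -1.13 and -1.94). It weights each library and is therefore not counted as a separate check. The median log2 fold change of the 9 was -0.04 beside 0.08 for all tested genes, and 5 of them lay below 0.

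By mean level over the 6 libraries the order was MCL1 (66.1 FPKM), BAK1 (14.3), BCL2L1 (10.3), BAX (9.25), BAD (7.79), BID (6.57), PMAIP1 (4.29), BCL2L11 (3.29), BBC3 (2.50) and BCL2 (0.26). MCL1 exceeded BAK1 in 6 of 6 libraries with no overlap of their ranges. Every other pair of neighbours in this order overlapped in range, and none of these 8 pairs kept its order in all 6 libraries. MCL1 made up 64.3%, 51.3% and 50.1% of the summed FPKM of the 10 members in vector control 1 to 3 and 48.6%, 51.8% and 51.7% in KO 1 to 3. The sum was 128, 149 and 145 FPKM in vector control 1 to 3 and 115, 105 and 106 in KO 1 to 3. The 3 KO sums lay below the 3 control sums. Without MCL1 the sum was 45.6, 72.7 and 72.4 in the controls and 59.3, 50.5 and 51.1 in the KO libraries, so the groups overlapped and vector control 1 had the lowest of all.

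Set against MCL1 in the same library, PMAIP1 and BID stood higher in each KO library than in each control. The PMAIP1 to MCL1 ratio was 0.0451, 0.0403 and 0.0564 in vector control 1 to 3 and 0.0609, 0.0823 and 0.127 in KO 1 to 3. For BID it was 0.0840, 0.0768 and 0.0924 in the controls and 0.147, 0.108 and 0.105 in the KO libraries. The lowest KO value exceeded the highest control in both, by little for PMAIP1. Both ratios share the MCL1 values in their denominator, so they are not independent of each other or of the MCL1 levels above, and no test was made of them. MCL1 itself divided the groups, so a gene of even level, such as BID (log2 fold change 0.01), can divide them in this ratio. The share of all tested genes that do so was not counted. BCL2L11 and BAD overlapped between groups relative to MCL1. BBC3 relative to MCL1 was 0.00547, 0.0839 and 0.0770 in the controls in order, with the KO libraries at 0.0210, 0.0105 and 0.0143.

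**Figure D3:**
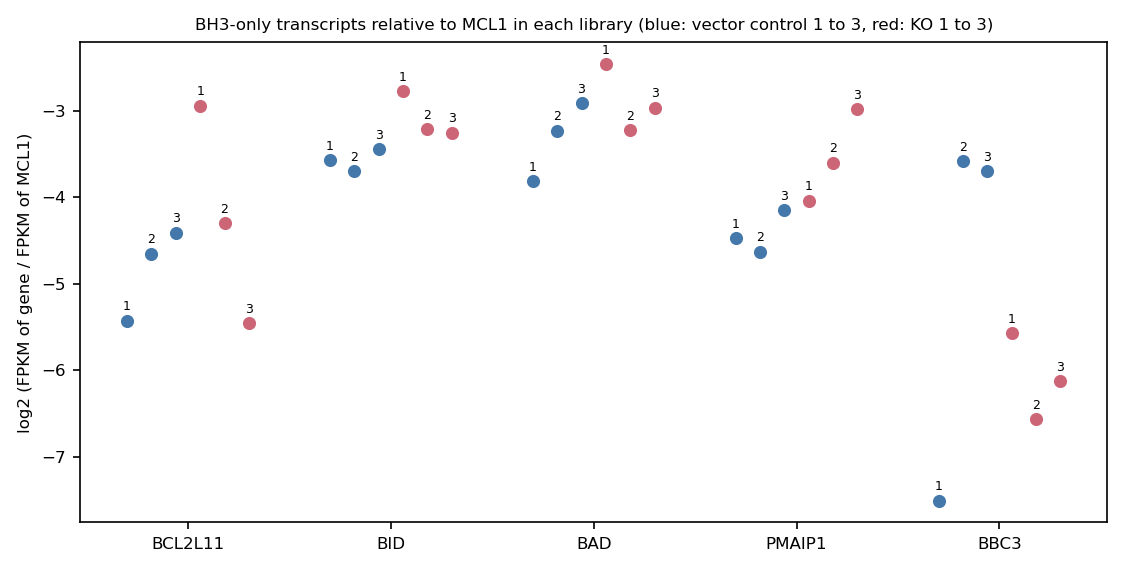
Log2 ratio of the FPKM of each BH3-only member to that of MCL1 (y axis) in vector control 1 to 3 (blue) and KO 1 to 3 (red); the digit beside a point is the library's number. The 3 red points lie above the 3 blue ones for BID (-3.25 to -2.77 against -3.70 to -3.44) and PMAIP1 (-4.04 to -2.98 against -4.63 to -4.15), and blue point 1 of BBC3 lies at -7.51, far below blue points 2 and 3. The MCL1 values in the denominator were themselves lower in every KO library than in every control.

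The tested genes with the profile closest to that of MCL1 over the 6 libraries, by the root mean square difference of centred log2(FPKM + 1) values, were the atypical cadherin gene FAT1 (0.0372), PLGLB2 (0.0414) and VCL (0.0569), which encodes vinculin of focal adhesions. FAT1 went with MCL1 at 11.34, 10.37 and 10.01 FPKM in vector control 1 to 3 and 8, 7.58 and 7.47 in KO 1 to 3, and was not called either (log2 fold change -0.41, limma adjusted p = 0.207).

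The other members of the wider family showed no called change. Of 13 further BCL2 family genes 7 were tested, with 0 called higher, 0 lower and a median log2 fold change of -0.02. Of all tested genes 1.35% were called. At an unadjusted limma p of 0.05 there was 1 (14.3%), beside 17.5% of all tested genes. It was the joined row PABPN1;BCL2L2;BCL2L2-PABPN1. BCL2L2 encodes the anti-apoptotic BCL-W, and its joined row was at 11.4, 12.87 and 13.64 FPKM in vector control 1 to 3 and 9.24, 8.71 and 9.11 in KO 1 to 3 (log2 fold change -0.44, limma adjusted p = 0.197). That row passed without vector control 1 (-0.51, limma adjusted p = 0.0395), where 13.8% of all tested genes were called. Reads of BCL2L2 cannot be told from those of PABPN1. BCL2L13 had the highest value of the list at 0.09, which turned to -0.11 without KO 1. The anti-apoptotic BCL2A1 and BCL2L10 were listed at 0 in all 6 libraries.

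Downstream of the pore, 0 of 15 tested genes of cytochrome c release and caspase activation were called by limma in either direction, 2 passed an unadjusted p of 0.05, beside 1.35% called and 17.5% at that p of all tested genes, and the list median was 0.26. CYCS, cytochrome c itself, had the lowest fold change (-0.86, limma adjusted p = 0.436) and was set apart by single libraries, at 47.02 FPKM in vector control 1 and 6.19 in KO 1 with the other 4 between 22.06 and 25.07. Its fold change was -0.27 without KO 1 and -0.52 without vector control 1. CASP2, an initiator caspase gene, had the highest (0.55, adjusted p = 0.511); leaving out KO 2 brought it to 0.28, and leaving out vector control 1 to 0.95. It was at 10.18, 3.48 and 4.25 FPKM in vector control 1 to 3 and 5.95, 12.71 and 7.70 in KO 1 to 3.

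The inhibitor of apoptosis genes, which act on caspases and on death receptor signalling, held the only call in these lists that stood with each library left out. BIRC3 (cIAP2) fell from 10.48, 9.09 and 8.26 FPKM in vector control 1 to 3 to 1.88, 2.25 and 2.19 in KO 1 to 3 (log2 fold change -1.72, SE 0.16, limma adjusted p = 0.00484). Of the 6 tested genes of its list 1 was called lower and 0 higher, beside 0.842% and 0.509% of all tested genes. At an unadjusted limma p of 0.05 the list held 3 (50%), beside 17.5% of all tested genes, and its median was 0.26. XIAP, the direct caspase inhibitor, was at 2.07, 2.37 and 4.60 FPKM in vector control 1 to 3 and 8.22, 9.49 and 8.31 in KO 1 to 3. Its groups did not overlap, as in 15.4% of all tested genes with the KO libraries higher. Its log2 fold change was 1.32, but it missed the threshold (limma adjusted p = 0.0568). It passed without vector control 1 (1.15, adjusted p = 0.0339) and without vector control 3 (1.59, adjusted p = 0.0346).

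Of 13 tested death receptor genes limma called 0, with 4 at an unadjusted p of 0.05, beside 1.35% and 17.5% of all tested genes, and a median of 0.26. FAS, the receptor gene, had the lowest fold change (-0.59, limma adjusted p = 0.0999), from 1.36, 1.27 and 1.35 FPKM in vector control 1 to 3 to 0.64, 0.37 and 0.65 in KO 1 to 3. RIPK1, the receptor-bound kinase gene, had the highest (1.79, adjusted p = 0.236). It stood at 11.4, 1.27 and 1.43 FPKM in vector control 1 to 3 and at 7.76, 16.38 and 17.75 in KO 1 to 3. Vector control 1 was again with the KO libraries, here on the high side. Without it FAS was at -0.58 (adjusted p = 0.0447) and RIPK1 at 2.59 (adjusted p = 0.0156).

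Among 12 tested transcription factor genes known to regulate the family, 1 was called lower and 0 higher, with a median of -0.06. Of all tested genes 0.842% were called lower and 0.509% higher. At an unadjusted limma p of 0.05 the list held 4 (33.3%), beside 17.5% of all tested genes. These were JUN, TP73 (log2 fold change 0.55, limma adjusted p = 0.108), FOXO3 (-0.75, adjusted p = 0.217) and MYC (-1.07, adjusted p = 0.234). JUN, an AP-1 subunit gene, fell from 29.44, 31.57 and 28.21 FPKM in vector control 1 to 3 to 11.94, 16.27 and 13.78 in KO 1 to 3 (log2 fold change -1.04, SE 0.16, limma adjusted p = 0.0303). That call held without vector control 1 (adjusted p = 0.0182) and was lost without any one of the other 5 libraries (adjusted p from 0.0588 to 0.158). The joined row DDIT3;AC022506, with the gene of the stress factor CHOP that can raise BBC3 and BCL2L11, had the lowest value at -1.11 (adjusted p = 0.546). It was at -2.10 without vector control 1 (adjusted p = 0.0497), -0.52 without vector control 2 and -0.69 without vector control 3. It stood at 6.97, 69.97 and 54.91 FPKM in vector control 1 to 3 and 29.11, 10.39 and 8.25 in KO 1 to 3, high in the same pair of controls as BBC3. BCL2L11 did not share this, with 7.33 FPKM in KO 1 above every control. A link of DDIT3 to either gene was not tested. TP63 had the highest fold change of the list at 0.60 (limma adjusted p = 0.418), which was 0.17 without KO 1. Of 20 tested genes that act on the proteins of the family, such as ubiquitin ligases of MCL1 and 14-3-3 proteins that bind BAD, limma called 0, with 5 at an unadjusted p of 0.05, beside 1.35% and 17.5% of all tested genes (median -0.02). They ran from the 14-3-3 gene YWHAG (-0.40, adjusted p = 0.238) to the ubiquitin ligase gene BTRC (0.73, adjusted p = 0.165), which passed without vector control 1 (0.94, adjusted p = 0.0144).

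**Figure D4:**
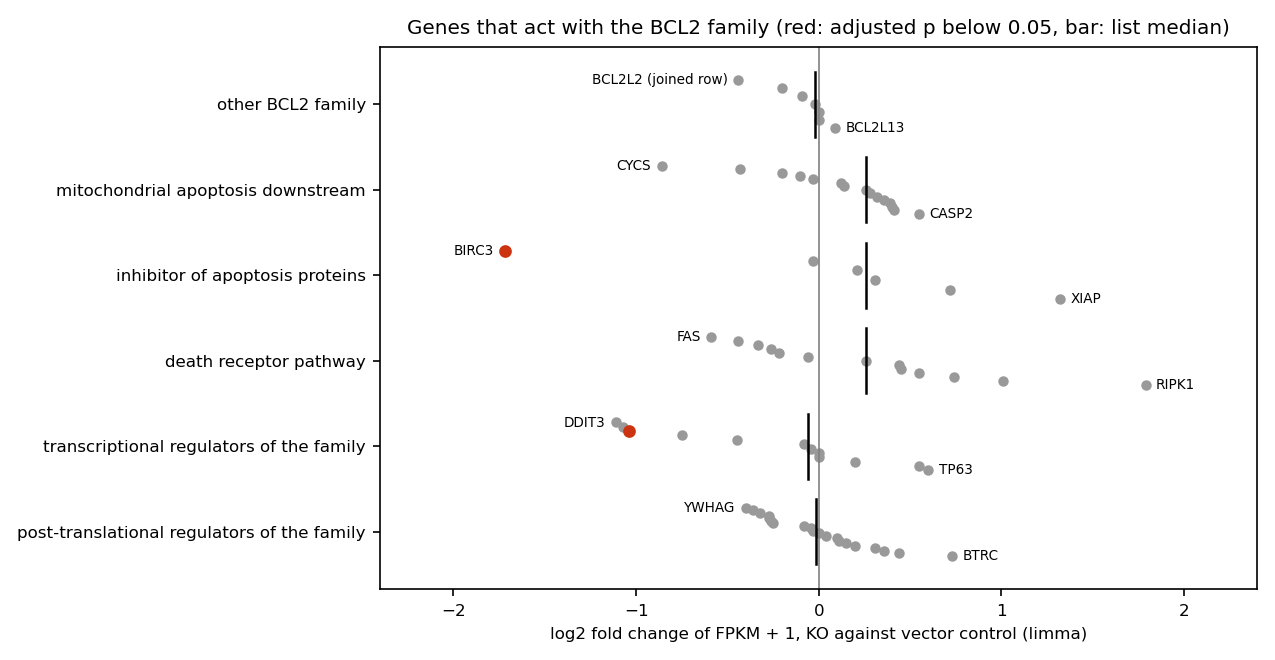
Log2 fold change of the 73 tested genes of 6 lists of genes that act with the BCL2 family (x axis, log2 of FPKM + 1, KO against vector control), 1 point a gene, with the list median as a bar and called genes in red. The 2 red points are BIRC3 (-1.72) and JUN (-1.04); the points marked DDIT3 and BCL2L2 are joined rows.

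In all 6 lists 2 of 73 tested genes were called lower and 0 higher, beside 0.842% lower and 0.509% higher of all tested genes. At an unadjusted p of 0.05 they held 19, or 26%, beside 17.5% of all tested genes. Their groups did not overlap in 32.9%, with 11 genes higher and 13 lower in the KO libraries, beside 23.8% of all tested genes, 15.4% higher and 8.35% lower. The median log2 fold change over the 6 lists was 0. The counts depended on vector control 1, without which 13 of the 73 were called, 7 higher and 6 lower, in a comparison that called 13.8% of all tested genes.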

How the data were processed

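Total RNA of 6 MIA PaCa-2 libraries was sequenced, 3 per group. The deposited values are FPKM, scaled by the authors to length and library size and given to 2 decimals, per the file headers. The submitters' processing notes list HISAT2, cutadapt and FastQC and the build hg19; for their versions, the FPKM tool, annotation and strand use, nothing is given in the sources used here, so reads of a gene and an antisense partner cannot be told apart. A search for whole-read steps in low values reached a concentration of 0.524 of 1 at best. It rested on 34 to 59 values a library and on transcript lengths that may not be those behind the FPKM. The search therefore cannot decide, and depth is unknown. All 13 mitochondrially encoded rows were at 0, so an exact 0 can be an unmeasured value.

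limma 3.58.1 (R 4.3.3; lmFit, eBayes with trend, two-sided) was fitted to log2(FPKM + 1) of the 9624 rows that reached 1 FPKM in 3 or more of the 6 libraries, KO against vector control, no covariates; Benjamini-Hochberg adjusted p below 0.05 was a call. The pseudocount understates changes of low genes. The test was checked on simulated data. A joined row is named by all its symbols. Members and lists were chosen with earlier results of these data known. Named were all members, called genes of 6 pathway lists with each list's highest and lowest fold change, and the 3 profiles nearest to the member with the lowest p; further genes were chosen after their values were seen. Alternatives were other pseudocounts, filters, scalings, limma variants, a replicate block, a threshold of 0.1 and each library left out, keeping the 9624 genes.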

Additional observations from a re-analysis of the deposited data

How the results depend on the processing

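Of 132 values of the 9 tested members under alternatives, 114 kept their direction and side of the threshold, 12 turned direction and 6 became calls, these being MCL1, BAK1 and BBC3 without vector control 1 and with robust limma and array weights. Members called were 0 in the main setting, 3 with robust limma and array weights, and 0 to 3 with a library left out. Pathway genes called were 2, against 35 with robust limma, 4 at an adjusted p of 0.1 and 1 to 13 with a library left out. All genes called were 130 (37.7% higher in KO), against 241 without a filter, 59 with a filter at 5 FPKM, 4020 with robust limma, 274 at an adjusted p of 0.1 and 25 to 1329 with a library left out (25 without KO 3, 29 without KO 2, 39 without vector control 2 or 3, 1329 without vector control 1). The share higher was 26.4% after median scaling and 23.8% after quantile normalization.

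Values that turned direction were those of BID (-0.07 with median scaling, -0.03 with quantile normalization, -0.05 with robust limma), BAX (-0.07 with robust limma) and BCL2L11 (-0.44 with robust limma). With a library left out the log2 fold change ran from -0.14 to 0.09 for BID, -0.24 to 0.11 for BAD, -0.21 to 0.03 for BCL2L1, -0.36 to 0.58 for BCL2L11 and -0.11 to 0.23 for BCL2L13. The cause was not tested. Same-numbered libraries did not deviate together (r of deviations across genes -0.374, -0.153 and -0.264). Deviations from a mean of 3 libraries are tied to each other and vector control 1 stood apart, so these values cannot decide whether the numbers pair libraries. The labels do not say. With a replicate block 7 genes, 0 members and 0 pathway genes were called, and BIRC3 and JUN missed the threshold (adjusted p = 0.0959 and 0.191). BBC3, PMAIP1 and BCL2L11 gave no value with a filter at 5 FPKM. Depth is unknown, and the number of libraries limits the precision.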

Other observations

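Chosen after their values were seen, the tested genes with the profiles closest to those of BAK1 and BBC3 are given by name, and their likeness is fixed by that choice. For BAK1 they were the joined row MAFG;SIRT7 (root mean square difference of centred log2 values 0.0854), TMEM159 (0.0913) and VPS18 (0.0931), a subunit gene of vacuolar sorting complexes. VPS18 was at 4.60, 11.26 and 11.09 FPKM in vector control 1 to 3 and 4.95, 4.38 and 4.77 in KO 1 to 3. For BBC3 they were MIDN (0.155), ZNF296 (0.157) and PIP4P1 (0.166). MIDN, which encodes midnolin, was at 3.47, 18.91 and 19.22 FPKM in vector control 1 to 3 and 6.58, 4.85 and 5.10 in KO 1 to 3.

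HRK, a BH3-only gene below the filter, was the 1 further family gene with every KO library above every control, at 0.10, 0.07 and 0.04 FPKM in vector control 1 to 3 and 0.12, 0.29 and 0.31 in KO 1 to 3. KO 1 and vector control 1 were close together, and at these levels no test was made. Such groups occur in 15.4% of all tested genes, but HRK is not among those genes. The share among rows below the filter was not counted.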
